A study of Mus musculus with 4 samples.

Results

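RNA of sorted inner ear cells from newborn *Atoh1/nGFP* mice was examined for the genes of DNA replication and mitosis. These were chosen by symbol. Every row of the deposited table was taken whose symbol begins with *Mcm*, *Orc*, *Cdc*, *Cenp*, *Gins*, *Bub* or *Aurk*, followed by a digit where the family is numbered, together with the A, B, D and E cyclins, *Plk1* to *Plk4*, *Rfc1* to *Rfc5*, *Pcna*, *Ndc80*, *Top2a*, *Birc5* and names starting with *Mki67*. The 11 rows whose symbols start with *Cdc42* were left out. The rule gave 71 genes of 12814 rows. Of these, 51 have a known role in replication or division by the role lists used here, and the other 20 match by name but are in none of these lists. Most of the 20 are known for another function, such as *Cdc73* in transcription or *Cdc40* in splicing, although *Cenpb* acts at the centromere and *Cenpj* at the centriole. They are called members of other function below.

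The study compared 4 populations, each represented by 1 library. Hair cells (HCs), the mechanosensory cells of the ear, were sorted from the cochlea and from the vestibular organ of mice at postnatal day 1 by nuclear GFP, which the *Atoh1* transgene drives, together with the epithelial surface protein CD326. Epithelial non-sensory cells (ENSCs) of the same organs carried CD326 and no GFP. All mice were on a C57BL/6 background with the *Atoh1/nGFP* transgene, none had a further treatment in the labels, and inner ears of several animals were pooled for a sort. With 1 library per population no value below has a replicate error, no test between populations was possible and no p-value is given.

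Before a cell divides, the origin recognition complex (ORC) marks the sites where replication can begin, and the ring of MCM2 to MCM7 is loaded there and unwinds the DNA once the kinase CDC7 and the GINS proteins have activated it. Cyclins of the D and E type drive the cell out of G1, cyclin A, cyclin B and the CDC25 phosphatases drive it into mitosis, and kinetochore and checkpoint proteins oversee the separation of the chromosomes. Mammalian HCs have left the cell cycle by birth. The supporting cells around them are largely quiescent too, and those of the newborn vestibular organ keep some ability to divide.

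Each value is a quantile-normalized signal per gene. A floor of 20 was applied, each of the 4 columns summed to 7830343 with a median of 120, and 1412 rows stood at the floor in each, so the sequencing depth is unknown. At the low end of a column, signals were ordered by how high the gene stood in the other libraries and broke off from that order at a value of 24.25 in cochlear HCs, 22.75 in cochlear ENSCs and 30.5 in vestibular HCs. Signals up to there were treated as tied, and in vestibular ENSCs the tied range was the floor of 20 itself. A signal in this tied range is read below as low only, and a fold against it is given as a lower bound computed from the top of the range. Every one of the 10 HC markers listed exceeded 3-fold in favour of HCs in both organs. The epithelial marker *Epcam*, which encodes CD326, was present in all libraries, at 1016.75 in cochlear HCs, 3376.25 in cochlear ENSCs, 1139.25 in vestibular HCs and 7511 in vestibular ENSCs. In bulk samples, fewer cells expressing a gene and less of its RNA per cell cannot be told apart.

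The promoters of 5 members are shown first, because they show members with different motifs and different patterns of signal. The window of *Cdc25b* lies inside the annotated gene and is not printed, and that window and both of *Ccnd3* held no CHR. *Mki67*, *Top2a* and *Bub3* had their highest signal in vestibular ENSCs, *Mcm6* in vestibular HCs and *Plk4* in cochlear HCs. The sequences come from RefSeq for the build GRCm38.p6 and run 5′ to 3′ on the strand of the gene, from 250 bases before a transcription start to that start or to the first annotated base of the gene, whichever came first. Capitals mark the cell cycle homology region (CHR, TTTGAA or TTTAAA), the NF-Y box (CCAAT) and the E2F site (TTTCCCGC, TTTCGCGC, TTTGCCGC or TTTGGCGC), on either strand.
*Mki67*, chr7:135716451-135716629, minus strand: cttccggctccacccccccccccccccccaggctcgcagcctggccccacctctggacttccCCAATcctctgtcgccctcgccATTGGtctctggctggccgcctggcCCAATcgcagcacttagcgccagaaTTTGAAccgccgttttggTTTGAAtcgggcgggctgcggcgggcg
*Top2a*, chr11:99024200-99024439, minus strand: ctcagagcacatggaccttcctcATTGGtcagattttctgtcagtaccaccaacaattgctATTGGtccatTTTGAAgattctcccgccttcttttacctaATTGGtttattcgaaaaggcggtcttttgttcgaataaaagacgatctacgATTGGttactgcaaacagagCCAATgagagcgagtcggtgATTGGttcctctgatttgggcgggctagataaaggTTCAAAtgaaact
*Bub3*, chr7:131560120-131560366, plus strand: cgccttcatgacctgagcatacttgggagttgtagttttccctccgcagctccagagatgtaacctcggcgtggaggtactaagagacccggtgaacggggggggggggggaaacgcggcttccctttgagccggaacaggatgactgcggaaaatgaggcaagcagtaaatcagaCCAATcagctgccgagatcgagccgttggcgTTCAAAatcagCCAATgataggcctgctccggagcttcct
*Mcm6*, chr1:128359706-128359955, minus strand: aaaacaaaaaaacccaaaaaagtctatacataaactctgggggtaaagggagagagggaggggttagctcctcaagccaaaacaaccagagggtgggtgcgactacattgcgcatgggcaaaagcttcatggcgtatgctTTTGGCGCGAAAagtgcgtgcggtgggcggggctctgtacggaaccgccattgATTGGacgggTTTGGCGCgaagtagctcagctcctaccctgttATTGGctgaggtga
*Plk4*, chr3:40799701-40799950, plus strand: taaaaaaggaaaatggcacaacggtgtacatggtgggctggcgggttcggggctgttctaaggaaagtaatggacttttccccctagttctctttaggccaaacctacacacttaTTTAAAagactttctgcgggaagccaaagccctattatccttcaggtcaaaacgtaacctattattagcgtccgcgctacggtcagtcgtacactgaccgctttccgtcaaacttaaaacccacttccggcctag

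The stretch before *Mki67* held 2 CHR letters and 3 NF-Y boxes, and that before *Top2a* held 2 CHR letters and 6 NF-Y boxes. *Bub3* had 1 CHR, on the opposite strand, and 2 NF-Y boxes. *Mcm6* had no CHR and 3 E2F matches, of which 2 overlap on opposite strands, with 2 NF-Y boxes. *Plk4* had 1 CHR of the palindromic form TTTAAA.

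Among all members, 59 had a promoter window of 300 bases in the RefSeq table, and the windows reach 50 bases past the start. A gene was counted when any of its windows held the motif on either strand. The CHR was found in 24 of the 59 (40.7%), against 22.5% of the 9337 table genes with a window. It stood in 12 of 23 mitotic members (52.2%), which are those of the mitotic cyclin, kinase, kinetochore, marker and anaphase groups, and in 4 of 16 members of the origin, helicase and clamp groups (25%). The E2F letters had the opposite order, with 6 of those 16 (37.5%) and 2 of the 23 mitotic members (8.7%), against 4.67% of table genes. The NF-Y box was in 17 of 23 mitotic members (73.9%), in 11 of 16 replication members (68.8%) and in 43% of table genes. The 18 members of other function were at 38.9% for the CHR, 33.3% for the NF-Y box and 11.1% for E2F. Counted per window, the CHR was in 27.6%, the NF-Y box in 37.4% and E2F in 2.26% of all 32851 windows. By direction, the CHR was in 3 of 6 members past 3-fold lower and in 4 of 7 past 3-fold higher in vestibular HCs. These are matches of letters and were not tested for binding. Among those without an entry were *Ccnd1*, *Ccnd2*, *Mcm4*, *Ccna2*, *Ccne2* and *Aurkb*.

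**Figure D1:**
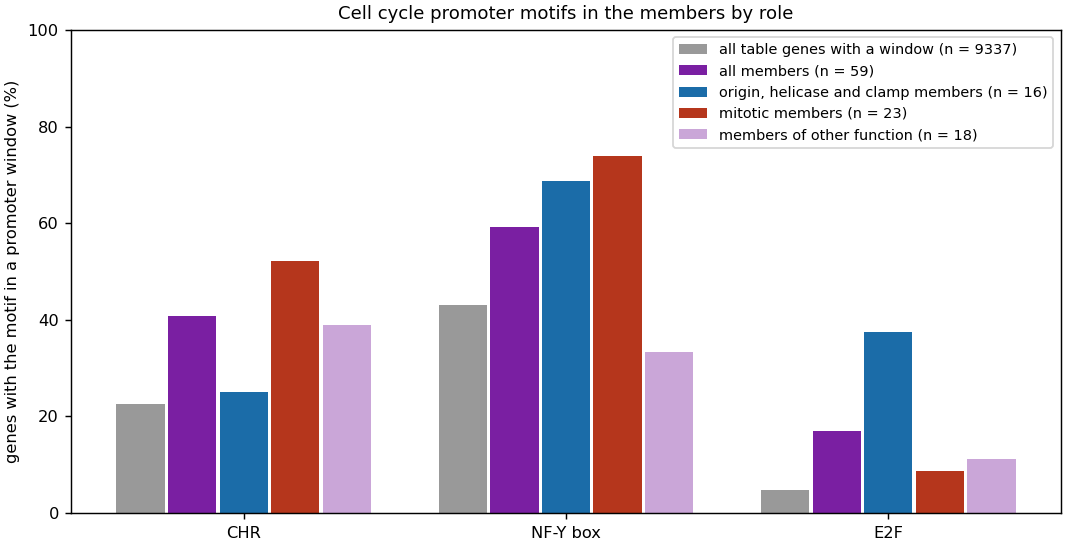
Share of genes (%) with each promoter motif in at least 1 window of 300 bases, by role; bars stand for all table genes with a window and for the members in total and by role, and n is the number of genes. The CHR bar is highest for mitotic members (52.2%) and the E2F bar for origin, helicase and clamp members (37.5%).

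Across the 4 contrasts, which are HC over ENSC in each organ and cochlear over vestibular for each cell type, 20 members (28.2%) differed by at least 3-fold in 1 or more, against 42.1% of all rows. The members had low signals. Of the 71, 41 (57.7%) reached a signal of 100 in 1 or more libraries, against 71.7% of rows. Among those 41 members, 17 (41.5%) passed 3-fold somewhere, against 49.2% of rows with such a signal. The share of members past 3-fold exceeded that of all rows in 1 contrast and direction, lower in cochlear than in vestibular ENSCs, where it was 8.45% against 7.94%. After a correction for exonic length and GC content, described below, that share was 9.86% against 5.41%.

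In the cochlea, 5 members were past 3-fold in either direction, where 17.6% of rows were. Of these, 3 were at least 3-fold higher in HCs (*Cdc25b*, *Plk4* and *Cenpf*), a share of 4.23% against a background of 8.39%. There, 2 members were at least 3-fold lower (*Ccnd2* and *Mcm2*), against a background of 9.2%. In the vestibular organ, 15 members were past 3-fold in either direction, where 28.1% of rows were. Of these, 7 were higher in HCs (*Cdc25b*, *Mcm6*, *Cenpc1*, *Mki67ip*, *Cdc7*, *Cdc14a* and *Mcm8*), against a background of 13.8%. In the same organ 8 were lower (*Ccnd3*, *Mki67*, *Bub3*, *Ccnd2*, *Top2a*, *Cenpb*, *Plk3* and *Mcm4*), against 14.3%. These counts use the signals as deposited. With tied ranges at their top *Mcm2* left the count of the cochlea, with 1 lower and 3 higher, and *Plk3* that of the vestibular organ, with 7 lower and 7 higher. The bound for *Plk3* in vestibular HCs was 2.69-fold, and it was also lost with a floor of 50, a pseudocount of 20 and among rows reaching 100. The median log2 ratio of the members was 0 in the cochlea, where that of all rows was 0, and -0.12 in the vestibular organ, where that of all rows was -0.0045. The vestibular median had no stable sign, since it was 0.6 (all rows 0.09) among rows reaching 100, 0 with a floor of 50 and 0.07 (all rows 0.16) with tied ranges set to their top. *Cdc25b* alone was higher and *Ccnd2* alone was lower past 3-fold in both organs, and these patterns were found in 4.99% and 4.66% of all rows. No member passed 3-fold in opposite directions in the organs, where 0.406% of rows did.

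**Figure D2:**
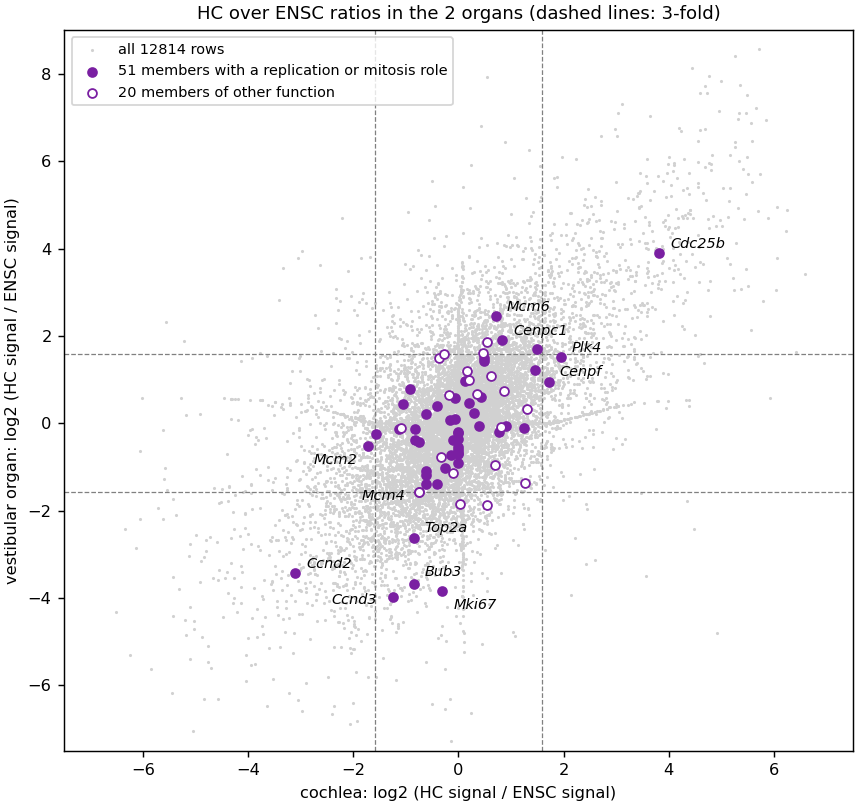
Log2 ratio of HC to ENSC signal in the cochlea (x axis) and in the vestibular organ (y axis) for all 12814 rows (grey), 51 members with a replication or mitosis role (filled) and 20 members of other function (open); dashed lines mark 3-fold. *Cdc25b* lies at the upper right, *Ccnd2* at the lower left, and *Ccnd3*, *Mki67*, *Bub3* and *Top2a* lie lower on the vestibular axis than on the cochlear axis, where all 4 are also below 0.

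The D-type cyclins, which activate CDK4 and CDK6 in G1, were all highest in vestibular ENSCs. *Ccnd2* (mm9 chromosome 6, 127075797 to 127101066, minus strand) had a signal of 71 in cochlear HCs, 610.25 in cochlear ENSCs, 184.25 in vestibular HCs and 1998 in vestibular ENSCs. It was therefore 8.6-fold lower in HCs than in ENSCs of the cochlea and 10.8-fold lower in those of the vestibular organ, and the HCs of both organs lay below both ENSC libraries. *Ccnd1* ranged much less, with 503.75 and 776 in cochlear HCs and ENSCs and 490.75 and 1109 in vestibular HCs and ENSCs, which are log2 ratios of -0.62 and -1.18. *Ccnd3* was close to the tied range in cochlear HCs (26), within it in vestibular HCs (29), at 62 in cochlear ENSCs and at 457.5 in vestibular ENSCs. Vestibular HCs thus had an at least 15-fold lower signal than vestibular ENSCs and cochlear HCs a 2.38-fold lower signal than cochlear ENSCs. The exons of *Ccnd1* and *Ccnd3* overlap those of *Oraov1* and *Bysl* on the opposite strand over 818 and 353 bases.

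Divided by exonic length, the make-up of the D cyclins differed between HCs and ENSCs. *Ccnd1* held 84.6% of the summed signal per kb in cochlear HCs and 73.9% in vestibular HCs, and 60.1% and 34.3% in the ENSCs of these organs. *Ccnd2* held 8.02% and 18.7% in the HCs, and 31.8% and 41.6% in the ENSCs. *Ccnd3* held 24.1% in vestibular ENSCs and between 7.42% and 8.16% in the other libraries, with its tied signal in vestibular HCs entered as deposited. In signal per kb the 3 cyclins summed to 155 in cochlear HCs, 337 in cochlear ENSCs, 173 in vestibular HCs and 843 in vestibular ENSCs.

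The E-type cyclins, partners of CDK2 at the entry into S phase, followed another order. *Ccne2* was highest in cochlear HCs, at 331.5, with 120 in cochlear ENSCs, 114.75 in vestibular HCs and 49.5 in vestibular ENSCs. This is 2.76-fold higher in HCs in the cochlea and 2.32-fold higher in the vestibular organ, below the 3-fold line in both, and its exons overlap those of *Ints8* over 609 bases. *Ccne1* stood at the floor in 3 libraries and at 23.5 in vestibular ENSCs.

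**Figure D3:**
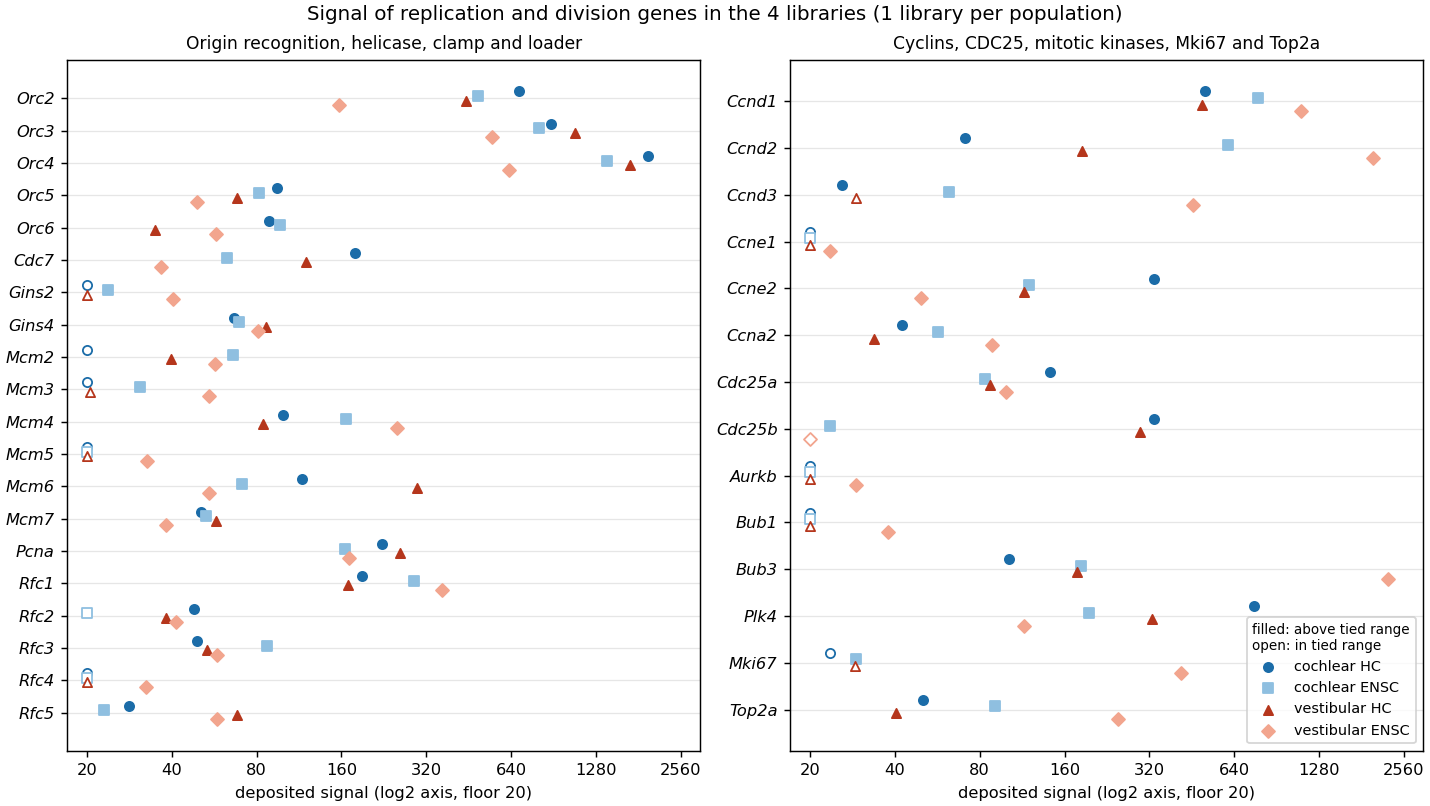
Deposited signal (log2 axis, floor 20) of each member of the origin, helicase and clamp groups (left) and of the cyclin, CDC25, mitotic kinase and marker groups (right) in the 4 libraries; open symbols lie in the tied range of their library. Vestibular ENSCs lie far to the right for *Ccnd2* (1998), *Bub3* (2253.25), *Ccnd3* (457.5) and *Mki67* (414), and to the left for *Orc2*, *Orc3*, *Orc4* and *Orc5*.

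*Mki67* and *Top2a*, both used as marks of dividing cells, were high in vestibular ENSCs. *Pcna*, another such mark described below, was not highest there. *Mki67* encodes the Ki-67 antigen of cycling cells (mm9 chromosome 7, 142881471 to 142908062, minus strand). Its signal was 23.5 in cochlear HCs and 28.75 in vestibular HCs, both in the tied range, 29 in cochlear ENSCs and 414 in vestibular ENSCs. Vestibular ENSCs exceeded vestibular HCs at least 13.6-fold and cochlear ENSCs 14.3-fold, and the other 3 libraries lay close together. *Top2a*, the topoisomerase that untangles sister chromosomes, had 50.25 in cochlear HCs, 90.75 in cochlear ENSCs, 40.25 in vestibular HCs and 247.25 in vestibular ENSCs. It was 6.14-fold lower in vestibular HCs than in vestibular ENSCs and 1.81-fold lower in cochlear HCs than in cochlear ENSCs. The 2 ENSC libraries differed 2.72-fold for *Top2a*.

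*Bub3*, a protein of the spindle checkpoint, had its highest signal, 2253.25, in vestibular ENSCs. The other libraries had 102 in cochlear HCs, 183.75 in cochlear ENSCs and 176.75 in vestibular HCs. Vestibular ENSCs thus exceeded vestibular HCs 12.7-fold and cochlear ENSCs 12.3-fold. Its checkpoint partner *Bub1* was at the floor in 3 libraries and at 37.75 in vestibular ENSCs, and *Aurkb*, the kinase of the chromosomal passenger complex, was at the floor in the same 3 and at 29 in vestibular ENSCs. Altogether 7 members (9.86%) were at the floor in all libraries but vestibular ENSCs, namely *Aurkb*, *Bub1*, *Ccne1*, *Cdc20*, *Cenpa*, *Mcm5* and *Rfc4*, against 3.54% of rows, and their signals there were between 23 and 37.75. Of these, *Cenpa*, *Ccne1*, *Aurkb* and *Cdc20* did not exceed the tied range of vestibular HCs, so their rank against that library is unknown. No member was above the floor in cochlear HCs alone, in cochlear ENSCs alone or in vestibular HCs alone, where 1.15%, 1.06% and 0.905% of rows were. The paper describes these data as limited to genes covered by a minimum number of reads. A gene above the floor in a single library would therefore be retained through that library only. Genes low in every library are absent, so these shares, of members and of rows alike, are shares of retained genes. The vestibular ENSC library also had the fewest signals in its tied range, with 2 members (2.82%) and 11% of rows, and vestibular HCs had 16 members (22.5%) and 21% of rows. Counting only signals above the tied ranges of all other libraries, 23 members (32.4%) were highest in vestibular ENSCs, against 31% of rows, a share near the background, and of the 51 with a role 17 (33.3%) were.

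Markers of several cell types were also high in the vestibular ENSC library. All 6 epithelial markers were at least 3-fold lower in vestibular HCs than in vestibular ENSCs. Of the 8 mesenchymal markers in the table, 6 were lower there and 1, *Pdgfra*, was 3.41-fold higher, where 14.3% and 13.8% of rows were, and the summed signal of the 8 was 490.5 in vestibular HCs, 5144.75 in vestibular ENSCs, 1585 in cochlear HCs and 16663.5 in cochlear ENSCs. The endothelial gene *Kdr*, the only 1 of 7 listed in the table, was at 1461.75 in vestibular ENSCs and between 24.25 and 29.75 elsewhere. The glial gene *Sox10* was at 1183 in vestibular ENSCs and 202.5 in cochlear ENSCs, while HCs had 45 in the cochlea and 45.75 in the vestibular organ. Of the 8 neuronal and glial markers in the table, 3 were past 3-fold lower in vestibular HCs, namely *Sox10*, *Pmp22* and *Mbp*, and 3 were higher, namely *Nefl*, *Nefm* and *Isl1*. The 8 summed to 2253 in vestibular ENSCs and to between 6378.5 and 8815.25 elsewhere. The 16 supporting cell markers summed to 26167 in cochlear HCs and 107053 in cochlear ENSCs, of which *Epyc* alone gave 62028.5. They summed to 19194 in vestibular HCs and 27518.5 in vestibular ENSCs. Of the 16, 4 (25%) were past 3-fold lower in cochlear HCs, against 9.2% of rows. In vestibular HCs 3 (18.75%) were lower, against 14.3%, and 1 (6.25%) was higher, against 13.8%. The higher marker was *Sox2*, at 8.5-fold. *Cd68*, the only 1 of 12 blood and macrophage markers in the table, stayed between 20 and 24.75, and the 5 melanocyte markers had no row in the table. HCs and ENSCs were both sorted as positive for CD326, which the paper describes as a marker of inner ear epithelial cells. The part of mesenchymal, endothelial and glial cells in the *Mki67*, *Top2a*, *Bub3*, *Ccnd2* and *Ccnd3* signals was not tested.

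*Cdc25b* was the member with the largest ratio in favour of HCs. It encodes a phosphatase that activates cyclin-dependent kinases at the entry into mitosis (mm9 chromosome 2, 131012685 to 131024233, plus strand). Cochlear HCs had a signal of 332.75 and vestibular HCs of 296.25, against 23.5 in cochlear ENSCs and 20, the floor, in vestibular ENSCs. This is 14.2-fold higher in HCs in the cochlea and at least 14.8-fold higher in the vestibular organ, and the 2 HC libraries were alike at a log2 ratio of 0.17. Its exons overlap those of *Spef1* on the opposite strand over 92 bases, and the counting strand is not known. *Cdc25a*, which acts earlier at the entry into S phase, had 142.25, 83.5, 86.75 and 99.25 in cochlear HCs, cochlear ENSCs, vestibular HCs and vestibular ENSCs, with no ratio past 3-fold. Of the 2 phosphatases together, *Cdc25b* made up 69.5% of the signal per kb in cochlear HCs and 76.9% in vestibular HCs, against 21.5% in cochlear ENSCs and at most 16.4% in vestibular ENSCs, where it was at the floor. *Ccna2*, the cyclin A of dividing cells, had 42.5 and 56.75 in cochlear HCs and ENSCs and 33.75 and 88.75 in vestibular HCs and ENSCs, so the vestibular HCs were 2.63-fold lower. The row *Ccnb2-ps* is annotated as a pseudogene and was at 56 in vestibular HCs and at 25.75 or less elsewhere. Its reads cannot be told from those of its parent gene by these counts.

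*Plk4*, the kinase that starts centriole duplication, was 754.25 in cochlear HCs, 195.5 in cochlear ENSCs, 328 in vestibular HCs and 115 in vestibular ENSCs. It was 3.86-fold higher in HCs in the cochlea and 2.85-fold higher in the vestibular organ, and both HC libraries lay above both ENSC libraries.

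The MCM helicase genes did not move together. *Mcm6* had 116 in cochlear HCs, 71 in cochlear ENSCs, 296 in vestibular HCs and 54.25 in vestibular ENSCs, which is 5.46-fold higher in vestibular HCs than in vestibular ENSCs. *Mcm4* ran the other way, with 99.25, 166, 84 and 252 in the same order, and was 3-fold lower in vestibular HCs. This ratio lies on the threshold, and the call was lost with the pseudocount of 20 and with centring on the median ratio. *Mcm2* was at the floor in cochlear HCs and at 66 in cochlear ENSCs, 39.75 in vestibular HCs and 57 in vestibular ENSCs. The cochlear fold of *Mcm2* is a lower bound of 2.72, so that its place past 3-fold rests on the floor value. *Mcm3* (20, 30.75, 20.5 and 54) and *Mcm5* (20, 20, 20 and 32.75) were low throughout, and *Mcm7* varied between 38.25 and 57.25. Per kb of exon, *Mcm6* made up 52.8% of the 6 subunits in vestibular HCs and 9.16% in vestibular ENSCs, where *Mcm4* made up 51.8%, with tied signals entered as deposited. The 6 subunits form 1 ring, and their summed signal per kb was 84 in cochlear HCs, 110 in cochlear ENSCs, 128.5 in vestibular HCs and 136 in vestibular ENSCs.

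*Cdc7*, the kinase that activates the helicase, was higher in HCs, with 178 and 63 in cochlear HCs and ENSCs and 120 and 36.75 in vestibular HCs and ENSCs. The ratios are 2.83-fold in the cochlea and 3.27-fold in the vestibular organ. The vestibular call of *Cdc7*, and that of *Mcm8* described below, were lost with a floor of 50 and with a pseudocount of 20. The GINS genes were low. *Gins4* stayed between 66.25 and 86.25, and *Gins2* reached 40.5 in vestibular ENSCs, although its annotated exons overlap those of *Gse1* over 2758 bases.

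The origin recognition genes, for 4 of 5, were lowest in vestibular ENSCs. *Orc4* had 1966.5 in cochlear HCs, 1404.75 in cochlear ENSCs, 1698.5 in vestibular HCs and 631 in vestibular ENSCs. *Orc2* had 682.5, 489.5, 442.5 and 156.75 in that order, and *Orc3* had 884.75, 806.25, 1075.5 and 546. None of the 5 passed 3-fold between HCs and ENSCs, and *Orc2* was 3.12-fold higher in cochlear than in vestibular ENSCs. That call was lost with a pseudocount of 20 and with the correction for exonic length and GC content described below, which took the log2 ratio from 1.64 to 1.18. In the same contrast the correction took *Orc4* from 1.15 to -0.03 and *Orc3* from 0.56 to -0.24, so their lower signal in vestibular ENSCs did not hold its direction against cochlear ENSCs. *Orc5* was between 49.25 and 94.5, and *Orc6* was lowest in vestibular HCs (34.75) and highest in cochlear ENSCs (97). Summed per kb, the 5 genes gave 673 in cochlear HCs, 535 in cochlear ENSCs, 564 in vestibular HCs and 267 in vestibular ENSCs.

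**Figure D4:**
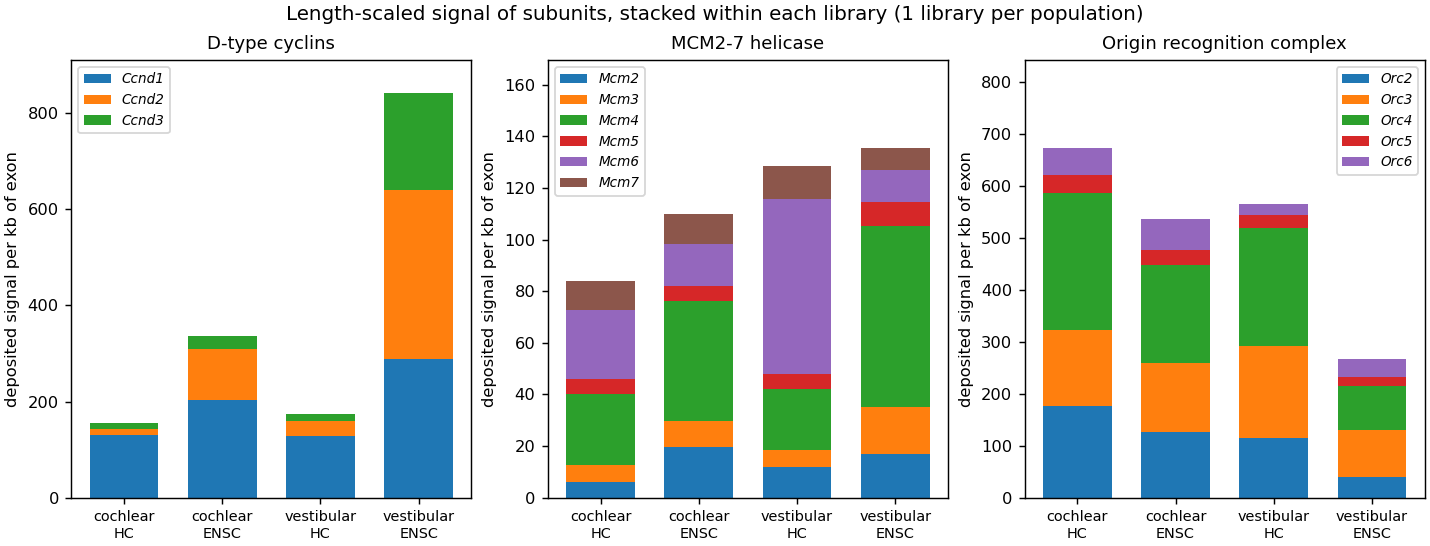
Deposited signal per kb of exon of each subunit, stacked by library, for the D-type cyclins, the MCM2 to MCM7 helicase and the origin recognition complex. The D cyclins sum to 843 in vestibular ENSCs and 155 in cochlear HCs, *Mcm6* fills 52.8% of the helicase bar in vestibular HCs, and the origin bar is lowest in vestibular ENSCs (267).

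The sliding clamp and its loader differed little. *Pcna*, the clamp that holds the polymerases on DNA, had 222.5 in cochlear HCs, 164.25 in cochlear ENSCs, 259 in vestibular HCs and 170.5 in vestibular ENSCs, and was 1.35-fold and 1.52-fold higher in HCs. *Rfc1*, the large subunit of the clamp loader, was lower in HCs, with 188.75 in cochlear HCs, 289 in cochlear ENSCs, 169.25 in vestibular HCs and 363.75 in vestibular ENSCs, which is 1.53-fold and 2.15-fold. No member of this group passed 3-fold in any contrast. The small loader subunits were low, with *Rfc2* between 20 and 47.75, *Rfc3* between 49.25 and 87, *Rfc4* between 20 and 32.25 and *Rfc5* between 23 and 68.

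Of 12 centromere and kinetochore genes, 1 was past 3-fold higher in HCs in each organ (8.33%), against 8.39% of rows in the cochlea and 13.8% in the vestibular organ, and both calls were lost under the length and GC correction. *Cenpc1*, which ties the kinetochore to centromeric chromatin, had 627.75 in cochlear HCs, 353 in cochlear ENSCs, 650.5 in vestibular HCs and 174 in vestibular ENSCs, and was 3.74-fold higher in vestibular HCs. *Cenpf*, a large protein of the outer kinetochore, had 181, 55, 251.75 and 130.25 in that order, and was 3.29-fold higher in cochlear HCs. At the other end, *Cenpk* of the inner kinetochore was lowest by ratio in the cochlea, with 27.5 in HCs and 81.5 in ENSCs, and *Cenpl* in the vestibular organ, with 50.75 in HCs and 68.5 in ENSCs. The median log2 ratio of the group was -0.69 for the cochlea. For the vestibular organ it was -0.1, and 0.43 with tied ranges at their top, so that its sign is not known.

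The anaphase-promoting complex, which also acts in cells that no longer divide, showed no 3-fold difference in any contrast. *Cdc23* and *Cdc26*, subunits of the complex, had its highest and lowest ratio in the cochlea. *Cdc23* had 839.25 and 641.75 in cochlear HCs and ENSCs and 628 and 659.25 in vestibular HCs and ENSCs, though its exons overlap those of the mitotic kinesin gene *Kif20a* over 1259 bases. *Cdc26* was lower in HCs of the cochlea (60.75 against 80.75 in ENSCs) and higher in those of the vestibular organ (95 against 72.25). *Cdc27* ranged from 1415.75 to 2028.75 and *Cdc16* from 287.75 to 374. *Cdc20*, the activator needed in mitosis, was at the floor in 3 libraries and at 30.5 in vestibular ENSCs.

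Of the 20 members of other function, 3 (15%) were past 3-fold higher and 2 (10%) lower in vestibular HCs, against 13.8% and 14.3% of rows. *Cdc14a*, a phosphatase whose human counterpart is a deafness gene, had 1180.75 in cochlear HCs, 848.5 in cochlear ENSCs, 2842.5 in vestibular HCs and 933.75 in vestibular ENSCs, and was 3.04-fold higher in vestibular HCs. *Mki67ip*, a nucleolar protein that binds Ki-67, ran opposite to *Mki67* itself, with 545.25, 375.25, 403 and 111.25 in that order. *Cenpb*, which binds centromeric satellite DNA, was highest in vestibular ENSCs, at 180.25, against 77.25, 53.25 and 49.5 in cochlear HCs, cochlear ENSCs and vestibular HCs. *Mcm8*, a helicase of recombination repair, was lowest there, at 28.75, against 100, 120.25 and 86.5. *Plk3*, a stress kinase, was at 82 in vestibular ENSCs and in the tied range of the other 3 libraries. In the cochlea *Cdc37l1*, a relative of the co-chaperone CDC37, had the largest ratio (1318.25 in HCs and 531 in ENSCs), and *Mcm3ap*, a factor of messenger RNA export, the smallest (57.5 and 122).

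Between the 2 HC libraries, 1 member was past 3-fold in either direction, where 9.3% of rows were. It was *Cdc34*, a ubiquitin-conjugating enzyme higher in the cochlea (61.75 against the floor), where the background is 4.21%. Against the top of the tied range its fold is a lower bound of 2.02, so its place past 3-fold rests on the floor value. No member was lower, against 5.09%. The median log2 ratio of members was 0, as over all rows. Between the ENSC libraries, 9 members were past 3-fold in either direction, where 15.7% of rows were. Of these, 3 were higher in the cochlea (*Mcm8*, *Mki67ip* and *Orc2*), against 7.8%, and 6 were lower (*Mki67*, *Bub3*, *Ccnd3*, *Plk3*, *Ccnd2* and *Cenpb*), against 7.94%. Of the lower members, *Cenpb* and *Plk3* were lost with a pseudocount of 20 and with the length and GC correction. *Plk3* was also lost with a floor of 50 and among rows reaching 100. The correction brought in *Cenpf*, *Top2a* and, from a tied signal, *Bub1*. The vestibular ENSC library enters both this contrast and that of the vestibular HCs, so the same signals of *Mki67*, *Bub3*, *Ccnd2*, *Ccnd3*, *Cenpb* and *Plk3* count in both.

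Ratios against vestibular ENSCs were lower for genes with GC-rich exons. Over the 9257 rows that lay above the tied range in both vestibular libraries and had a GC content, Spearman's rho of the HC over ENSC log2 ratio with GC was -0.35, and over the 53 such members it was -0.415. In the cochlea rho was -0.0417 over 9701 rows and -0.0158 over 52 members, and between the ENSC libraries it was -0.45 and -0.609. These are correlations across genes of the same libraries, which are not independent replicates. After correction of the ratios for exonic length and GC, 2 members (*Cdc25b* and *Mcm6*) were past 3-fold higher in vestibular HCs, instead of 7, a share of 2.82% against 13.3% of rows, and 9 were lower, a share of 12.7% against 11.1%. *Cenpc1*, *Mki67ip*, *Cdc7*, *Cdc14a* and *Mcm8* were no longer counted as higher, at corrected log2 ratios of 1.27, 1.54, 1.47, 1.09 and 1.24, nor *Cenpb* and *Plk3* as lower, and *Bub1*, *Ccna2* and *Cdc123* entered as lower. *Bub1* lies just past the threshold (log2 ratio of -1.59), with a tied signal in vestibular HCs and an uncorrected bound of 1.24-fold. In the cochlea *Cenpf* was lost and *Cdc34* entered as higher. *Ccnd2*, *Ccnd3*, *Mki67*, *Bub3*, *Top2a* and *Mcm4* were the others among the 9. The corrected log2 ratios were 4.4 for *Cdc25b*, 2.28 for *Mcm6*, -3.44 for *Ccnd2*, -3.09 for *Ccnd3*, -4.08 for *Mki67*, -3.61 for *Bub3*, -3.21 for *Top2a* and -1.86 for *Mcm4*. Those of *Cdc25b*, *Ccnd3* and *Mki67* were computed from a tied signal as deposited and are not exact. For the origin genes with GC-poor exons the correction took *Orc4* from 1.43 to 0.53, *Orc2* from 1.5 to 1.04, *Orc3* from 0.98 to 0.29 and *Orc5* from 0.47 to -0.05, where it changed sign. It took *Ccne2* from 1.21 to 0.38 and *Plk4* from 1.51 to 0.83.

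**Figure D5:**
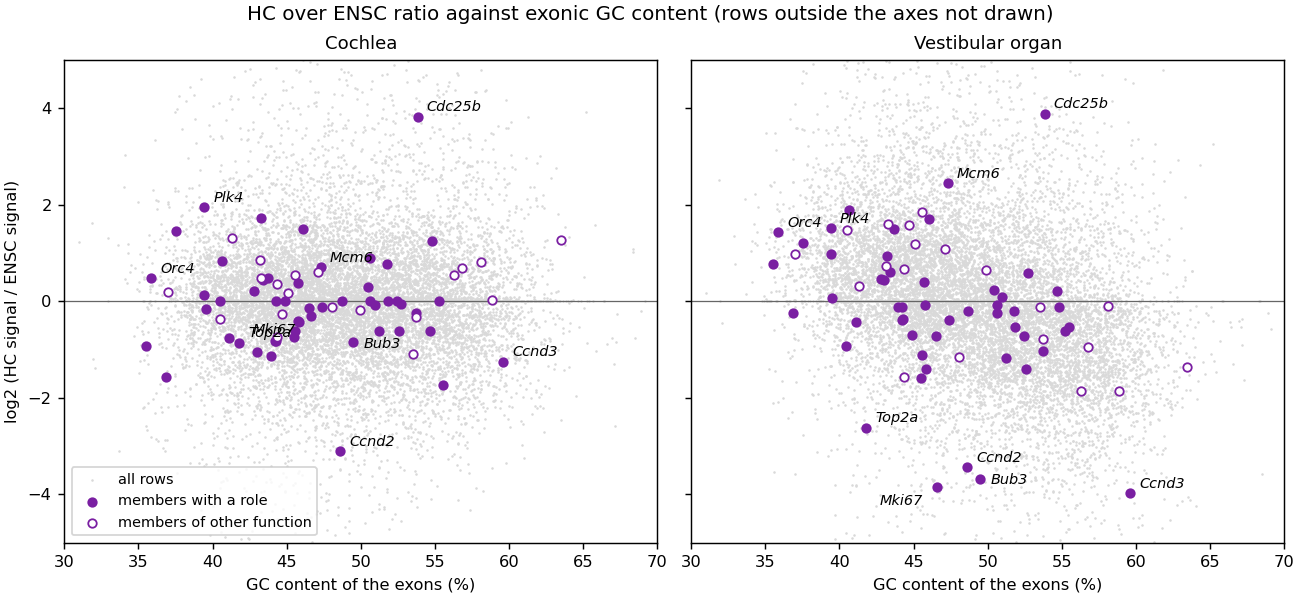
Log2 ratio of HC to ENSC signal against the GC content of the exons (%) in the cochlea (left) and the vestibular organ (right), for all rows (grey), members with a role (filled) and members of other function (open). The vestibular cloud slopes down (rho of -0.35 over all rows), with *Orc4* near its GC-poor end, and the cochlear cloud does not (rho of -0.0417).

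Genes of the same pathways that the symbol rule does not reach were counted from lists. Of 24 further replication genes in the table, 3 (12.5%) were past 3-fold lower and 0 higher in cochlear HCs, against 9.2% and 8.39% of rows. In vestibular HCs 2 (8.33%) were higher and 1 (4.17%) lower, against 13.8% and 14.3%. *Pole*, the catalytic subunit of DNA polymerase epsilon, was 27.75 in cochlear HCs, 100 in cochlear ENSCs, 1068.25 in vestibular HCs and 77 in vestibular ENSCs. *Clspn*, a replication checkpoint adaptor, was at the floor in 3 libraries and at 114 in vestibular HCs, and *Rpa1*, a subunit of the single-strand binding protein, was between 102.75 and 193.75. At the low end, *Pola1* of the priming polymerase had 98.25 and 521.75 in cochlear HCs and ENSCs and 107 and 168.5 in vestibular HCs and ENSCs. The DNA ligase gene *Lig1* was at 27.5 in cochlear HCs, 86.25 in cochlear ENSCs, 23.75 in vestibular HCs and 100 in vestibular ENSCs, and *Rrm1* of ribonucleotide reductase had 88 and 206.5 and then 179.25 and 208.75.

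Of 31 further mitosis genes, 2 (6.45%) were higher and 3 (9.68%) lower past 3-fold in cochlear HCs, against 8.39% and 9.2% of rows. In vestibular HCs 2 were higher and 2 lower (6.45% each), against 13.8% and 14.3%. With tied ranges at their top, 2 were lower in cochlear HCs, since the bound for the kinesin gene *Kif20b* was 2.61-fold. The correction for length and GC took both higher genes of the vestibular organ, *Kif18a* and *Nusap1*, below 3-fold (log2 ratios of 1.34 and 1.42). It took *Ncapd2* out of the lower genes (-1.5), and brought *Mad2l1*, *Casc5* and *Hmmr* past 3-fold as lower (-2.04, -2.1 and -1.73). The vestibular HC signals of *Mad2l1*, *Casc5* and *Hmmr* were tied (21.5, 20 and 20), with uncorrected bounds of 2.07-fold, 1.69-fold and 1.47-fold, so these corrected ratios are not exact. The kinesin gene *Kif18a* had 175.25, 88.75, 228.75 and 49.5 in cochlear HCs, cochlear ENSCs, vestibular HCs and vestibular ENSCs, and the spindle gene *Nusap1* had 61.75, 26.5, 128.5 and 33.25. *Cdca3*, a gene of mitotic entry, reached 113.75 in cochlear HCs and 25.75 or less elsewhere. *Smc2* of condensin (399.5, 685.75, 265 and 242.25), the CDK-binding *Cks1b* (122.25, 179.75, 105.25 and 169.25) and the kinetochore gene *Dsn1* (102.75, 144.25, 25.75 and 53.5) were at the low end of the ratios among those reaching 100. Genes that did not reach 100, such as *Ncaph* and *Kif11*, had lower ratios, with HC signals in the tied range.

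Of 22 further genes of G1 and S control, 1 (4.55%) was past 3-fold lower in cochlear HCs, against 9.2% of rows. In vestibular HCs 2 (9.09%) were higher and 3 (13.6%) lower, against 13.8% and 14.3%. *Rb1*, the retinoblastoma gene that holds cells in G1, had 2529 and 1215 in cochlear HCs and ENSCs and 3003 and 571.25 in vestibular HCs and ENSCs, or 2.08-fold and 5.26-fold higher in HCs. Next by the mean of both log2 ratios, among genes reaching 100, was the E2F partner *Tfdp2* (668.25, 417.25, 1043.25 and 440.25). *Lin54* of the complex that binds the CHR followed (378.75, 295.25, 429.25 and 207.75). *Lin52*, which did not reach 100, was the gene besides *Rb1* past 3-fold higher in vestibular HCs. Its signals were 61.75, 77, 89.75 and 22 in the same order, or 4.08-fold higher in vestibular HCs than in vestibular ENSCs. *Cdk4*, the kinase partner of the D cyclins, was also highest in vestibular ENSCs, at 894, with 175.25 in vestibular HCs, 295 in cochlear ENSCs and 176 in cochlear HCs, and was 5.1-fold lower in vestibular HCs. *Cdkn1a*, the CDK inhibitor p21, had 751, 1004.5, 1303.75 and 4175.75, and the E2F family gene *E2f3* had 181.25, 334.5, 166.25 and 354.25. The gene past 3-fold in the cochlea was *Cdkn1c*, the inhibitor p57Kip2, with 1625 in cochlear HCs, 5500.5 in cochlear ENSCs, 1975.75 in vestibular HCs and 800 in vestibular ENSCs. It is outside the rule for naming and was chosen after its values were seen, as was *Cdkn1b*. *Cdkn1b*, the inhibitor p27Kip1 that is known to keep the newborn cochlear epithelium from dividing, had 1716.5 in cochlear HCs, 2307.25 in cochlear ENSCs, 771.5 in vestibular HCs and 571 in vestibular ENSCs. Both cochlear libraries lay above both vestibular ones for *Cdkn1b*, and not for *Cdkn1c*. The correction for length and GC took the cochlear log2 ratio of *Cdkn1c* to -1.53, below 3-fold, and its vestibular one to 2.14, past 3-fold higher. In vestibular HCs *Lin52* (1.57) and *Cdkn1a* (-1.12) fell below 3-fold, and *Rb1* went from 2.39 to 1.77. *Rbl1*, an *Rb1* relative, entered as lower (-1.6) from a tied signal, with an uncorrected bound of 1.61-fold.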

How the data were processed

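Cells were sorted from epithelia of newborn *Atoh1/nGFP* mice, RNA was amplified with NuGEN Ovation, and 4 libraries, 1 per population, were analysed. The table deposited by the authors holds a signal for each gene, made by alignment of 50 nt read starts to mm9 (TopHat), read counts for ENSEMBL genes (HTSeq), quantile normalization and a floor of 20. Tool versions, annotation release and counting strand are not given in the sources used here. Depth per library is unknown, so no counting interval is given. The design text speaks of triplicates, and each column analysed here stands for 1 population. The non-HC columns were read as ENSCs.

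Ratios were log2 ratios of the deposited signal with no pseudocount, and a ratio of at least 3 was counted. With 1 library per group no test was run. A tied range ended at the low value beyond which the highest signal of the genes in the other libraries, having risen with the column's own values, dropped sharply. This search and the correction below were run on simulated data with a planted tied range and a planted GC trend. The planted range had the form that the search looks for, and no length trend was planted. It was therefore a check of the code only. Quantile normalization removes any overall shift between populations. Exonic length and GC content came from the GENCODE annotation of the mm9 assembly for 12799 of the 12814 rows (99.9%). Ratios were corrected for both by local regression over a share of 0.3 of the rows with 2 robust iterations. The exons of 23 members overlap those of another gene. The alternatives were a floor of 50, a pseudocount of 20, rows that reached 100 in any library, centring on the median ratio, a threshold of 2, tied ranges set to their top, and the length and GC correction. Promoter windows came from RefSeq (GRCm38.p6), matched by gene number. Python 3.11.15, numpy 2.4.6, pandas 2.3.3, statsmodels 0.14.6 and matplotlib 3.10.9 were used.

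The members, lists, motifs and naming rule were chosen with earlier results of these data known. Named were every member of the origin, helicase, clamp, cyclin, CDC25, mitotic kinase and marker groups. Of the other groups, those past 3-fold in any contrast with 100 or more in the higher library, and the highest and lowest by ratio in each organ, were named. Of genes outside the symbol rule, the 3 highest and 3 lowest of each list by the mean of both HC over ENSC log2 ratios were named, among those reaching 100 in any library. Other listed genes, such as *Cdk1*, *Ccnb1*, *Aurka*, *Plk1*, *Birc5* and *Ndc80*, had no row in the table analysed here and were not analysed.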

Additional observations from a re-analysis of the deposited data

Results flagged for a closer look

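*Pole* differed between the organs. Its HC over ENSC log2 ratio was -1.85 in the cochlea (27.75 against 100) and 3.79 in the vestibular organ (1068.25 against 77), so the vestibular log2 ratio exceeded the cochlear one by 5.64. With 1 library per population the difference was not tested. No member of the symbol rule was past 3-fold in opposite directions in the organs.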

How the results depend on the processing

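Counts of members past 3-fold moved by over 1.5 times under these settings. In the cochlea the 2 lower in HCs became 1 with a floor of 50, a pseudocount of 20, rows of at least 100 or tied ranges at their top, each time without *Mcm2*. In the vestibular organ the 7 higher became 2 with the length and GC correction, and the 8 lower became 5 with the pseudocount. *Cdc34*, the 1 member higher in cochlear than in vestibular HCs, was lost (0) with the floor of 50, the pseudocount, rows of at least 100 and tied ranges at their top. Of 3 members higher in cochlear than in vestibular ENSCs, 1 was left with the pseudocount (without *Mcm8* and *Orc2*) and 1 with the correction (without *Mki67ip* and *Orc2*). A threshold of 2 gave 8 higher and 7 lower in the cochlea (11.3% and 9.86% of members, against 16.5% and 17.4% of rows), 14 and 16 in the vestibular organ (19.7% and 22.5%, against 23.5% and 24.5%), 5 and 6 between HCs (7.04% and 8.45%, against 10.5% each), and 10 and 12 between ENSCs (14.1% and 16.9%, against 17.3% each). The cause was not tested where the setting does not show it. The other counts stayed within 1.5 times, and no named member past 3-fold changed sign. *Cdc25b*, *Ccnd2*, *Ccnd3*, *Mki67*, *Bub3*, *Top2a* and *Mcm6* kept their vestibular calls under every alternative. No paired analysis was possible because each population had 1 library, and for the same reason no replicate could be left out. Depth is unknown, and signals in the tied range limit what can be said of low members.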
